A study of Mus musculus with 12 samples.

Results

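The genes described here are the heat shock proteins and the DNAJ proteins, the chaperones and co-chaperones of mouse cells, measured by RNA-seq in Ocy454 osteocytes. They were taken by name, as the protein-coding genes whose mm9-era symbol begins with Hspa, Hspb, Hspd, Hspe, Hsph, Hsp90, Dnaja, Dnajb or Dnajc. The rule used no measured value. It found 75 genes among the 37583 gene identifiers counted, and 66 of them were among the 14904 genes that entered the tests. The other 9 were not tested: 5 had no read in any library, and Dnajb13, Hspb3, Hspa1a and Dnajc6 had at most 32 reads over all 12 libraries. By where their proteins mainly work, 50 members were placed in the cytosol or nucleus, 14 in the endoplasmic reticulum (ER) and 10 in mitochondria, and 1 (Dnajc22) was left unassigned.

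Ocy454 is a conditionally immortalised osteocyte line from mouse long bone that carries a temperature-sensitive T antigen, and a sub-clone grown from a single cell was used. After differentiation at 37 °C, dishes stayed static or received 3 h of fluid flow shear stress, abbreviated FFSS and applied by rotation on a heated platform. The surface under the static dishes is not given in the sources used here, so flow and platform cannot be told apart. Each treatment was given to control cells, labelled as the original cells, and to DKO cells in which both HDAC4 and HDAC5 were deleted by CRISPR, with 3 libraries in each of the 4 groups. These class IIa histone deacetylases move between cytoplasm and nucleus. The study asked which FFSS-responsive genes depend on them. The methods describe cells that carry Cas9 and guide lentiviruses, with an empty guide vector as the control, whereas the labels name the control only as above. The control and DKO cells are different derived populations, so the genotype and the population cannot be told apart. The labels do not say whether the 3 libraries of a group came from separate cultures, so the p-values measure the spread between these libraries, which may be partly technical.

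Heat shock proteins are grouped into families by their size and fold. HSP70 proteins bind exposed hydrophobic stretches of client proteins in a cycle driven by ATP, J-domain (DNAJ) proteins deliver clients and trigger ATP hydrolysis, and HSP110 proteins release the nucleotide. HSP90 acts on late folding intermediates such as kinases and steroid receptors, and small HSPs hold unfolded proteins without using ATP. Part of the cytosolic set is induced by the transcription factor HSF1 through heat shock elements, which are inverted repeats of GAA units, whereas the ER chaperones are induced by the unfolded protein response through the ER stress element. Osteocytes are the bone cells that sense fluid flow through their canaliculi.

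Each library held between 17585225 and 19174118 reads assigned to genes. Control FFSS replicate 1 stood apart from its group: over genes, its counts differed from those of replicates 2 and 3 by a chi-square of 63.8 and 58.0 per degree of freedom, against 6.45 between replicates 2 and 3 and 2.02 to 5.66 within the other groups. Its share of reads outside annotated genes was 5.87%, against 9.19% and 10.04% in the other 2 libraries of the group, 5.10 to 5.21% in static control libraries, 7.07 to 7.14% in DKO static and 7.93 to 8.55% in DKO FFSS. Hdac4 was lower in DKO than in control cells in both conditions (log2 difference -0.85 and -1.48, and -0.39 and -0.50 at another identifier of the same symbol), whereas Hdac5 lay between 80.2 and 90.8 CPM, the counts scaled to a common library size, in DKO static, 127 and 141 in static control, 71.1 and 90.2 in control FFSS and 92.4 and 93.3 in DKO FFSS. The position of the edits in the transcripts is not given in the sources used here, so these levels check the labels only in part. The osteocyte markers Sost and Mepe lay at 0.0977 to 12.4 and 0 to 0.211 CPM in control libraries, and reached 1741 to 2097 and 15.9 to 18.8 CPM in DKO libraries. The summed level of 6 osteocyte markers was 62.5 to 184 CPM in control and 3602 to 4025 CPM in DKO libraries, and that of 6 chondrocyte markers 50.9 to 103 and 2007 to 2952 CPM. Of the 5 osteocyte markers tested, 4 were higher in DKO static cells and Pdpn was lower (log2 difference -2.47), and the summed level of 6 macrophage markers was 19.6 to 33.1 CPM in control and 9.90 to 12.2 CPM in DKO libraries. Of the 4 macrophage markers tested, Cd68, which makes up most of that sum in control cells, was lower in DKO static cells (log2 difference -3.46) and the other 3 were higher. In bulk RNA, fewer cells of a type and less RNA per cell cannot be told apart.

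The promoters of 60 members were matched by symbol in RefSeq (GRCm38.p6). Each window, from 250 bases before to 50 after a start, was searched for a pair of heat shock element units, GAANNTTC or TTCNNGAA, which are the same on both strands. A pair was present in 16 of the 60 members (26.7%) and in 17.0% of all 27025 genes with a window. A run of 3 units, GAANNTTCNNGAA or TTCNNGAANNTTC, was present in 4 members (Dnajb6, Hspd1, Hspe1 and Hsph1; 6.67%), against 0.662% of all genes. The ER stress element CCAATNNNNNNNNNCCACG, searched on both strands, was present in 3 members (Hspa5, Hsp90b1 and Dnajc3; 5%), against 0.137% of all genes. The 250 bases before the start are shown for 4 members that fell under FFSS in control cells (Hspa1b, Hsph1, Dnajb4 and Hspb1), for Dnajb6, which holds 3 units and rose, and for the ER chaperone Hspa5. Capitals mark the heat shock element letters or, in Hspa5, the ER stress element. The run of 3 units of Hsph1 lies after its start, outside the bases shown, so its capitals mark a pair. Each sequence reads 5′ to 3′ along the gene's strand.
Hspa1b (chr17:34959239-34959488, minus strand): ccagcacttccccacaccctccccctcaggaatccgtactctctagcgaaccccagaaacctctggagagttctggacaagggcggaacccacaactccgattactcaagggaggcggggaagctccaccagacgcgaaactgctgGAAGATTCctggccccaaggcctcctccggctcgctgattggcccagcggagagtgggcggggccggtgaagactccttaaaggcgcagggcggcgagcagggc
Hsph1 (chr5:149636337-149636586, minus strand): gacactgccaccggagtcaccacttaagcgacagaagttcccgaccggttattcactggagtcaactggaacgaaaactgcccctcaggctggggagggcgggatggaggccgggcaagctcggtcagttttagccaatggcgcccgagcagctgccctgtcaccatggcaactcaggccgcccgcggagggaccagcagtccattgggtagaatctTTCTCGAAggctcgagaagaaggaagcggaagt
Dnajb4 (chr3:152193846-152194095, minus strand): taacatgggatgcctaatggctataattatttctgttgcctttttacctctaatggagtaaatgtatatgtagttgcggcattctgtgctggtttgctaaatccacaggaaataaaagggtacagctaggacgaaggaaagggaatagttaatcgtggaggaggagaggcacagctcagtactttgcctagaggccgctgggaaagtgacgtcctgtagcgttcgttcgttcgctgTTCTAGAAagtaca
Hspb1 (chr5:135887669-135887918, plus strand): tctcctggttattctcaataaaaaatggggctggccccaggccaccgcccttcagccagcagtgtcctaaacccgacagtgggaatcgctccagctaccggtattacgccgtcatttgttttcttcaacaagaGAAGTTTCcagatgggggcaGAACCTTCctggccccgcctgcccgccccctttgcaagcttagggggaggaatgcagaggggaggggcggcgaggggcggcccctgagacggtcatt
Dnajb6 (chr5:29735648-29735897, plus strand): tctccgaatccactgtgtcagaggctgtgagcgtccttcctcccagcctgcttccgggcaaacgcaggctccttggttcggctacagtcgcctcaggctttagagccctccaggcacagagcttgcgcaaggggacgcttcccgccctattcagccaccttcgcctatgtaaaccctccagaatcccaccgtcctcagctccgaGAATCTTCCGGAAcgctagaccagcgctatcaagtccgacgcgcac
Hspa5 (chr2:34771840-34772089, plus strand): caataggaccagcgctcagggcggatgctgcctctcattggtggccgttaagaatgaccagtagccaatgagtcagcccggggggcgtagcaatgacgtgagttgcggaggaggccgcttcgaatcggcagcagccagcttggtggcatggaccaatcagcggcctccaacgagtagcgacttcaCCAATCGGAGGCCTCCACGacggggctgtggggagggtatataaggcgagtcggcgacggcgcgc

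In control cells, 3 h of FFSS lowered 19 of the 66 tested members and raised 11, at an adjusted p under 0.05 in edgeR's quasi-likelihood test over all genes. The lower ones included the cytosolic chaperones Hspa1b, Dnajb1, Hspa4l, Hsph1 and Hspa8, and the higher ones included Hspa4 and the ER chaperone Hspa5. Among all genes tested, 18.1% were lower and 17.7% were higher by the same rule, so the members' 28.8% lower and 16.7% higher are given as a description. With a change of over 2-fold required as well, 3 members were lower (Hspa1b, Hspb7 and Hspb2) and 0 higher, against 1.97% and 3.96% of all genes. In the cytosol or nucleus, 16 of 41 tested members fell and 6 rose. In the ER, 3 of 14 fell and 4 rose, and in mitochondria 1 of 10 rose and 0 fell. The median log2 difference was -0.09 in the cytosol or nucleus, -0.08 in the ER and -0.07 in mitochondria, against 0.01 over all genes. All 19 members that fell had every FFSS library below every static library, and 10 of the 11 that rose had every FFSS library above. Among all genes that passed the same holds for 92.8% of the lower and 83.1% of the higher ones. Whether or not they passed, 20 members (30.3%) had every FFSS library below and 12 (18.2%) every one above, against 22.0% and 19.3% of all genes tested. Among all 30, FFSS replicate 1 lay nearest the static mean of the 3 FFSS libraries in 21. Without that library, 26 fell and 12 rose. With the share of reads outside genes as a covariate, 10 fell and 8 rose, 9 of those that fell being in the cytosol or nucleus, and with only the 6 control libraries 11 fell and 3 rose. The all-gene shares above belong to the main fit, and none is given for these alternatives.

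**Figure D1:**
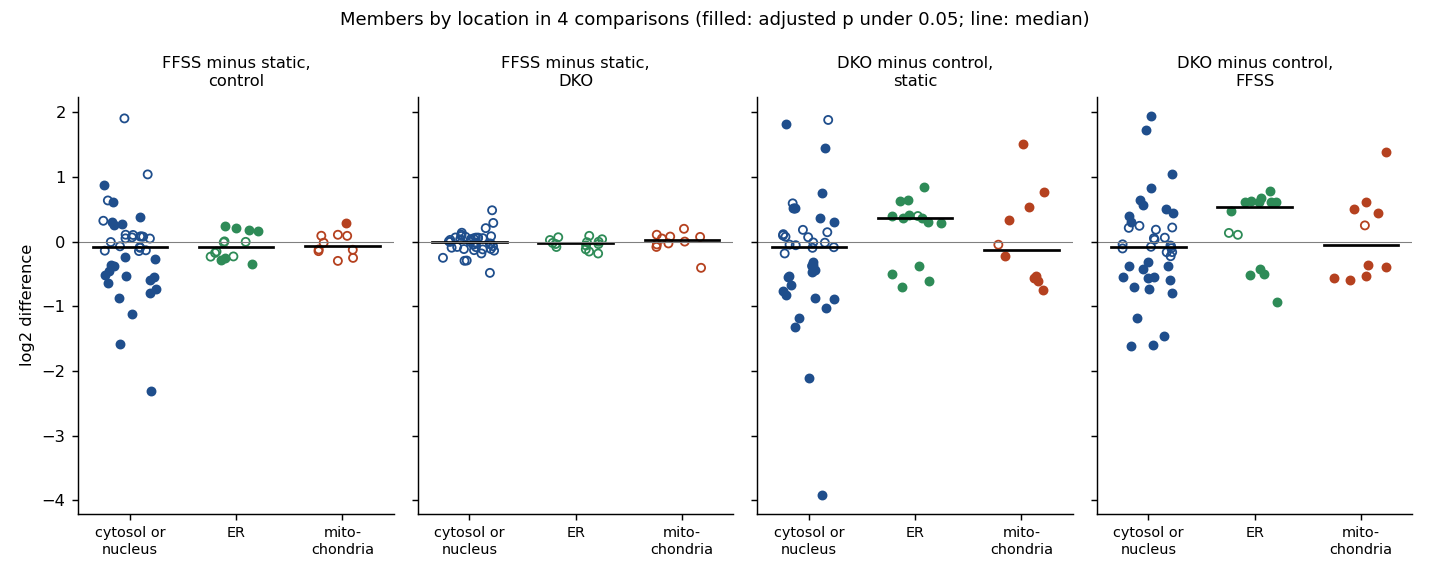
Log2 difference of each tested member with a location (points, filled at an adjusted p under 0.05) by location of its protein, with the median as a line, in 4 comparisons. The FFSS differences spread from -2.30 to 1.91 in control cells and from -0.48 to 0.48 in DKO cells, where no point is filled.

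Among 11 members taken as classical heat-inducible genes, 10 were tested, and 7 of them fell under FFSS in control cells while 0 rose, where 18.1% of all genes were lower and 17.7% higher. Their median log2 difference was -0.49, against 0.01 over all genes. The class was chosen with earlier results of these data known, so its counts are given as a description. The 3 that did not pass the test were Hsp90aa1, Hspd1 and Hspe1. The count stayed at 6 to 8 under every alternative fit and was 7 without control FFSS replicate 1, and 1 of them, Hspa1b, fell by over 2-fold. Hspa8 is counted among the 10 although it is also made in unstressed cells, and without it 6 of 9 fell. Over the members with a matched promoter, 5 of 13 tested members holding a pair of heat shock element units fell and 2 rose (Dnajb6 and Dnajc10), and 11 of 40 without one fell and 7 rose. The same all-gene shares stand behind these counts, and the difference between both sets was not tested. Both Hspd1 and Hspe1, which hold 3 units, are among the members that did not pass.

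The inducible HSP70 gene Hspa1b showed the largest FFSS change among the members that passed. The static control libraries held 32.3, 31.7 and 29.6 CPM and the FFSS control libraries 8.89, 4.69 and 5.40. The DKO libraries held 1.81, 2.30 and 2.06 CPM when static and 2.05, 2.08 and 2.07 under FFSS. The control groups did not overlap, and both DKO groups lay below every control library. In control cells the log2 difference was -2.30 ± 0.17 (SE; adjusted p = 1.49e-06). Hspa1b and its near-identical neighbour Hspa1a both lie on chromosome 17 of mm9, at chr17:35093381-35096183 and chr17:35106144-35109069. Only 37.7% of the 50-base windows in the exons of Hspa1b and 39.0% of those of Hspa1a occur once in mm9, and reads that map to both genes were not counted. Hspa1a had 8 reads over all 12 libraries and could not be tested, so the values describe the part of the pair that the reads can tell apart. The share of all reads that mapped to several places was 16.3 to 16.6% in static control libraries, 15.1 to 16.5% in control FFSS and 14.1 to 14.8% in DKO libraries, and its part in the Hspa1b difference was not tested.

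Hspa8, the main HSP70 of unstressed cells, which also strips clathrin from coated vesicles, had 394, 385 and 391 CPM in static control cells and 320, 252 and 281 in control FFSS. It fell by 0.45 ± 0.07 on the log2 scale (adjusted p = 0.000374), and by 0.27 with the share of reads outside genes as a covariate (adjusted p = 0.0194). DKO libraries held 158, 156 and 155 CPM when static and 161, 163 and 165 CPM under FFSS, all below the lowest control library. Of the 50-base exon windows of Hspa8, 62.7% were unique. Hspa2, a testis-enriched HSP70, also fell in control cells, from 16.4 to 19.4 CPM in static to 11.3 to 14.9 CPM in FFSS libraries (log2 difference -0.52 ± 0.12, adjusted p = 0.00637), and this call was lost with the share of reads outside genes as a covariate (adjusted p = 0.447).

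The HSP110 proteins, which exchange nucleotide on HSP70, went both ways. Hsph1 fell from 227, 194 and 199 CPM in control static to 104, 145 and 125 in control FFSS (log2 difference -0.73 ± 0.10, adjusted p = 0.000299). Hspa4l fell from 51.8, 49.4 and 49.1 to 33.6, 26.2 and 26.8 CPM (log2 difference -0.80 ± 0.09, adjusted p = 3.13e-05). Hspa4 rose from 325, 308 and 320 to 390, 415 and 367 CPM (log2 difference 0.30 ± 0.06, adjusted p = 0.00177). None of these 3 pairs of groups overlapped. All 3 calls held under every alternative fit, although none of the 3 passes the 2-fold rule and the difference of Hspa4l was -0.53 with the share of reads outside genes as a covariate.

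Of the cytosolic J-domain proteins, Dnajb1, the heat-inducible partner of HSP70 in refolding, fell from 178, 176 and 181 CPM in control static to 112, 89.6 and 91.3 in control FFSS (log2 difference -0.87 ± 0.08, adjusted p = 6.10e-06). Dnajb4, a close relative, fell from 56.0, 53.8 and 52.8 to 34.9, 36.1 and 32.9 CPM (log2 difference -0.65 ± 0.07, adjusted p = 3.13e-05). Dnajc21, a J-domain protein of ribosome maturation that is named here after its values were seen, fell from 93.2, 90.4 and 90.7 to 68.0, 61.0 and 53.5 CPM (log2 difference -0.59 ± 0.07, adjusted p = 7.86e-05). These 3 calls held under every alternative fit but are under 2-fold, and the difference of Dnajc21 was -0.37 with the covariate. Dnaja1, the farnesylated partner of HSP70, fell by less, from 80.5, 76.9 and 75.3 to 72.9, 64.5 and 60.1 CPM (log2 difference -0.24 ± 0.07, adjusted p = 0.0231). Its call was lost without control FFSS replicate 2 or 3 (adjusted p = 0.0638 and 0.0927) and without control static replicate 1 or 2 (0.0905 and 0.0557), and under library totals alone, with only the 6 control libraries and with the covariate (0.179, 0.0962 and 0.764). Among those that rose, Dnajb5 went from 7.08, 9.48 and 7.32 to 8.68, 13.8 and 13.9 CPM (log2 difference 0.61 ± 0.16, adjusted p = 0.0110). Its groups overlapped, and the call was lost without control FFSS replicate 3 (adjusted p = 0.0510), with only the 6 control libraries (0.0775) and with the covariate (0.891). Dnajb6, which keeps aggregation-prone proteins soluble, went from 11.9, 10.8 and 11.7 to 14.3, 14.6 and 12.7 CPM (log2 difference 0.27 ± 0.09, adjusted p = 0.0294). That call was lost without control FFSS replicate 2 (adjusted p = 0.0900) and without control static replicate 2 or 3 (0.107 and 0.0620), and under 5 other alternatives (0.0555 to 0.103). Of its 50-base exon windows 51.2% were unique. Dnajc17 rose too, by 0.295 to 0.510 on the log2 scale over the 12 fits that left out 1 library. It lost its call in 11 of these (adjusted p up to 0.177).

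**Figure D2:**
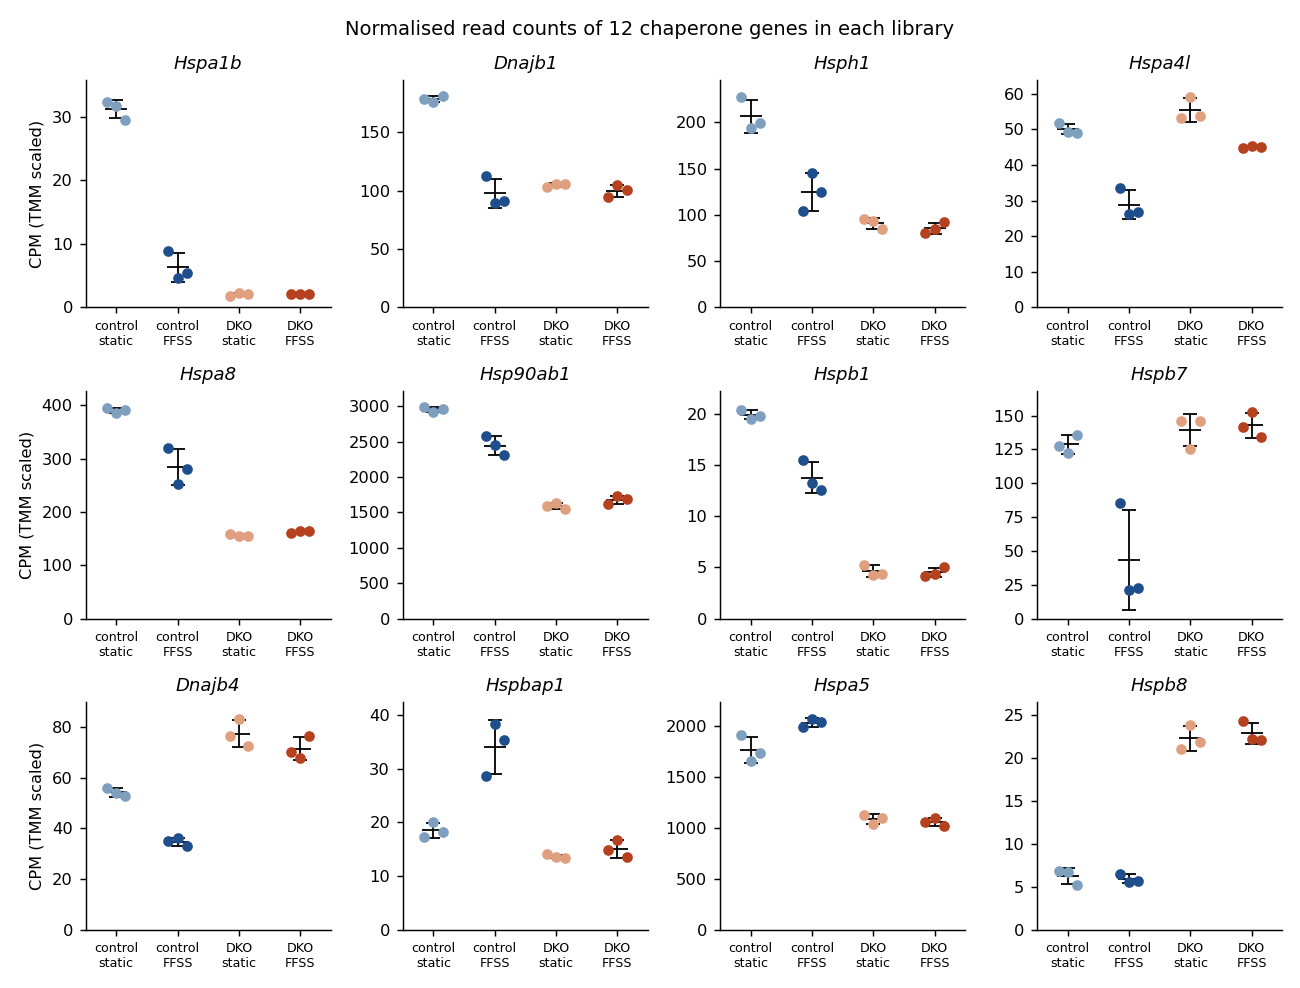
Normalised read counts (CPM, linear axes from 0) of 12 members in each of the 12 libraries, as points with the group mean and SD. Hspa1b, Dnajb1, Hsph1, Hspa8, Hsp90ab1 and Hspb1 fall with FFSS in control cells and lie lower in both DKO groups than in control static, whereas Hspb8 lies near 6 CPM in control and above 20 CPM in DKO cells.

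The most abundant member per length was the constitutive cytosolic HSP90, Hsp90ab1. In control static cells the mean level was 1244 CPM per kilobase of unique exon sequence for Hsp90ab1, followed by Hspa5 with 547, Hsp90b1 with 325, Hspa9 with 256, Hspd1 with 197, Hspa8 with 153 and Hsp90aa1 with 130. Under FFSS in control cells Hsp90ab1 fell from 2990, 2916 and 2958 CPM to 2575, 2446 and 2307 CPM (log2 difference -0.27 ± 0.06, adjusted p = 0.00328). The call was lost with only the 6 control libraries in the fit (adjusted p = 0.0548) and with the share of reads outside genes as a covariate (0.0888). The stress-inducible Hsp90aa1 did not pass, with 200, 190 and 191 CPM in static and 171, 191 and 167 in FFSS libraries, and 43.8% of its exon windows were unique.

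The small HSPs were taken by their numbered Hspb symbols, which include Hspb11. They gave 4 that fell of 7 tested and 0 that rose, where 18.1% of all genes were lower and 17.7% higher. All 4 calls were lost with the share of reads outside genes as a covariate, a share that was itself higher under FFSS. Hspb1 (HSP27), an actin-binding holdase, fell from 20.4, 19.5 and 19.8 CPM to 15.5, 13.2 and 12.6 CPM (log2 difference -0.53 ± 0.11, adjusted p = 0.00217). Its adjusted p with the covariate was 0.128, and 44.4% of its 50-base exon windows were unique. Hspb7, a muscle small HSP that binds filamin, had 128, 122 and 136 CPM in static control cells and 85.6, 20.9 and 22.8 in control FFSS, with replicate 1 far nearer the static libraries than the other 2 (log2 difference -1.58 ± 0.47, adjusted p = 0.0289). Without control FFSS replicate 1 the log2 difference of Hspb7 was -2.56 (adjusted p = 4.91e-19). The call was lost without control FFSS replicate 2 or 3 (adjusted p = 0.0663 and 0.0802) and without control static replicate 1, 2 or 3 (0.0614, 0.0572 and 0.0675), with only the 6 control libraries (0.0968), with no filter (0.0529) and with the covariate (0.374). Hspb2, a muscle small HSP that partners Hspb3, had 31.5, 30.1 and 33.2 CPM in static and 23.4, 9.91 and 10.4 in FFSS libraries (log2 difference -1.12 ± 0.26, adjusted p = 0.00893), and the same library again lay nearest the static ones. Without it the log2 difference of Hspb2 was -1.63 (adjusted p = 1.71e-14), and with the share of reads outside genes as a covariate it was -0.25 (adjusted p = 0.244). The call was also lost with only the 6 control libraries (adjusted p = 0.0614). The last that fell was Hspb11, which is named after its values were seen and lost its call with the covariate (adjusted p = 0.169). Hspb2 starts 404 bases from the oppositely oriented alpha-B-crystallin gene Cryab on chromosome 9 of mm9. Cryab, a small HSP by structure that the naming rule leaves out, had 467, 452 and 486 CPM in static control cells and 397, 157 and 192 in control FFSS (log2 difference -0.91, adjusted p = 0.0333), a call lost without any 1 of the control libraries other than FFSS replicate 1 (0.0658 to 0.109). The log2 difference of Cryab was -1.42 without that library and -0.11 with the share of reads outside genes as a covariate (adjusted p = 0.787).

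Hspbap1, a JmjC-domain protein that binds Hspb1, rose more than any other member that passed. It had 17.2, 20.1 and 18.2 CPM in static control cells and 28.6, 38.4 and 35.3 in control FFSS (log2 difference 0.88 ± 0.11, adjusted p = 8.27e-05). In DKO cells it held 14.0, 13.5 and 13.4 CPM in static and 14.8, 16.8 and 13.5 in FFSS libraries.

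In the ER the changes were small and went both ways. Hspa5 (BiP), the ER HSP70, rose from 1903, 1649 and 1730 CPM in control static to 1982, 2066 and 2040 CPM in control FFSS (log2 difference 0.20 ± 0.06, adjusted p = 0.0243). Its J-domain partner Dnajb11 rose from 181, 171 and 186 to 218, 198 and 192 CPM (log2 difference 0.18 ± 0.06, adjusted p = 0.0274), and Dnajc16 rose by 0.23 ± 0.08 (adjusted p = 0.0286). The ER HSP90, Hsp90b1, fell from 1087, 1002 and 1036 to 962, 825 and 779 CPM (log2 difference -0.28 ± 0.07, adjusted p = 0.00847). Dnajb14 and Dnajc14 fell as well (log2 difference -0.34 ± 0.07 and -0.25 ± 0.06, adjusted p = 0.00273 and 0.00878), and the calls of Hsp90b1, Dnajb14 and Dnajc14 were lost with the covariate (adjusted p = 0.640, 0.212 and 0.512). The unfolded protein response targets Dnajb9 and Dnajc3 did not pass, with 54.3 to 63.6 and 134 to 157 CPM in static control cells and 40.4 to 71.0 and 130 to 166 in control FFSS. The count of ER members that passed was 7, 10 without control FFSS replicate 1, 4 without control FFSS replicate 2, 4, 3 and 4 without control static replicate 1, 2 and 3, 4 with the covariate and 1 with only the 6 control libraries. Hspa5 lost its call without control FFSS replicate 2 or 3 (adjusted p = 0.0633 and 0.0546) and without control static replicate 2 or 3 (0.114 and 0.0857), with only the 6 control libraries (0.111) and with the covariate (0.148), and Dnajb11 without control static replicate 1 or 2 (0.0560 and 0.114). Dnajc16 lost it without any one of the control libraries other than FFSS replicate 1 (adjusted p = 0.0535 to 0.0902), and with the covariate its difference was 0.095 (adjusted p = 0.635). Of the exon bases of Dnajc14, 36.5% overlap the opposite-strand gene Ormdl2, and of those of Hsp90b1 10.3% overlap an opposite-strand gene.

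In mitochondria, Dnajc11, a J-domain protein of the inner membrane organising system, was the one member that passed. It rose from 98.3, 106 and 106 CPM in control static to 121, 129 and 129 in control FFSS (log2 difference 0.29 ± 0.05, adjusted p = 0.00149), a call that was lost with the covariate (adjusted p = 0.0705). The mitochondrial HSP70 Hspa9 did not pass, with 825, 756 and 761 CPM in static and 686, 774 and 684 in FFSS libraries. The chaperonin subunits did not pass either: Hspd1 had 210, 195 and 190 CPM in static and 195, 246 and 198 in FFSS libraries, and Hspe1 47.7, 48.5 and 48.1 and 38.0, 50.4 and 41.8 CPM. Of the exon windows of Hspd1, 49.1% were unique. Dnaja3, the J-domain partner of Hspa9, had 97.9, 94.3 and 94.0 and 90.6, 88.6 and 83.9 CPM, with no overlap but no call. The number of mitochondrial members that passed was 3 without control FFSS replicate 1 and 3 without control FFSS replicate 2.

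In DKO cells, 0 of the 66 members passed for FFSS in edgeR, where 0.376% of all genes were higher and 0.497% lower. At an unadjusted p under 0.05 there were 5 of the 66 members, Hspa4l, Dnajc17, Dnajc22, Hsp90b1 and Hspa2. By the same rule there were 2015 of the 14904 genes tested, which is the larger share. The smallest adjusted p among the members was 0.125. DESeq2 called 0 members, and limma-voom with quality weights called 1 higher and 3 lower. Over the 10 tested heat-inducible members the log2 differences lay between -0.30 and 0.08. The lowest was Hspa4l, with 53.2, 59.2 and 53.7 CPM when static and 44.8, 45.4 and 45.0 under FFSS, groups that did not overlap. Dnajb1 had 103, 106 and 106 CPM when static and 94.3, 104 and 100 under FFSS, and Hsph1 95.5, 93.0 and 84.3 and 80.5, 84.6 and 92.0. Without control FFSS replicate 1 in the fit, whose spread is shared by all groups, 4 members fell and 1 rose in DKO cells. No all-gene share is given for that fit or for limma-voom, and the shares above belong to the main fit.

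**Figure D3:**
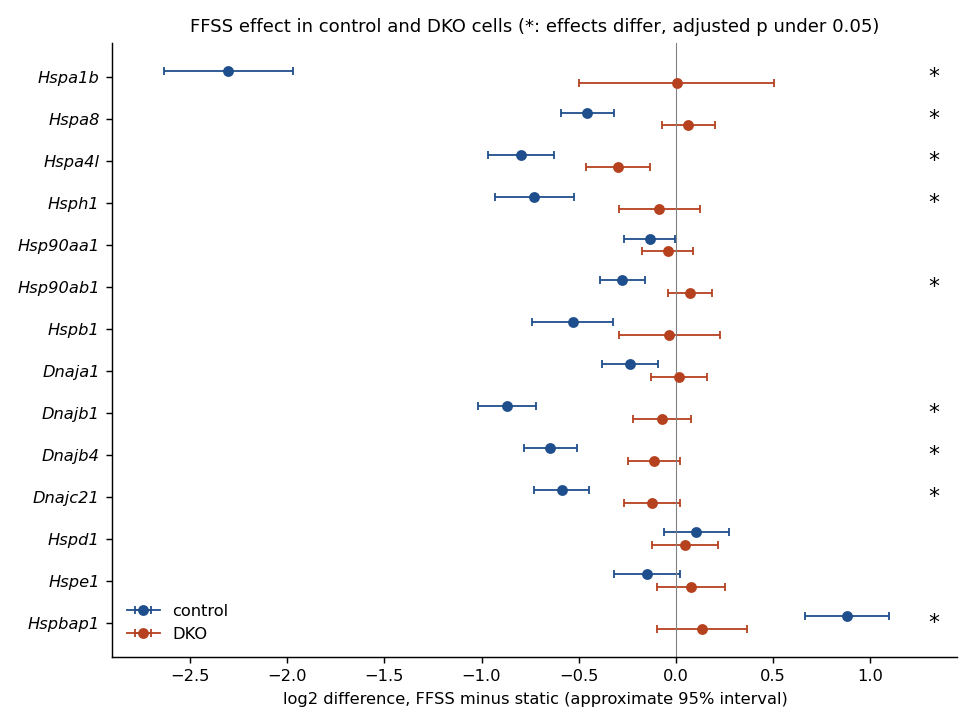
Log2 difference between FFSS and static cells, with approximate 95% intervals, in control (blue) and DKO cells (red) for the 10 heat-inducible members tested and 4 others. Asterisks mark the 9 members whose effects differ between genotypes at an adjusted p under 0.05, from Hspa1b (-2.30 in control cells) to Hspbap1 (0.88).

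The difference between both FFSS effects was tested as an interaction, and 9 members passed, 8 with a higher and 1 with a lower effect in DKO cells. Scaling by library totals alone gave 6 higher and 5 lower, and limma-voom with quality weights gave 23 and 7. In the main fit, 2.28% of all genes passed in the higher and 1.68% in the lower direction. These shares are no background for the counts of the other fits. All 9 had passed in control cells, in the opposite direction to the interaction. Each of the 9 is in the cytosol or nucleus, where 41 members were tested, and 0 of 14 in the ER and 0 of 10 in mitochondria passed, a difference between locations that was not tested. With over 2-fold required, Hspa1b alone passed (0.376% of all genes higher). The interaction was 2.31 ± 0.31 on the log2 scale for Hspa1b (adjusted p = 0.00161), 0.80 ± 0.11 for Dnajb1 (0.00161), 0.53 ± 0.10 for Dnajb4 (0.0104) and 0.52 ± 0.10 for Hspa8 (0.0125). These 4 passed under every alternative fit, Hspa1b being the one past 2-fold. It was 0.64 ± 0.15 for Hsph1 (adjusted p = 0.0340), 0.50 ± 0.12 for Hspa4l (0.0373), 0.47 ± 0.10 for Dnajc21 (0.0255), 0.35 ± 0.08 for Hsp90ab1 (0.0350) and -0.75 ± 0.16 for Hspbap1 (0.0232). Each of these 5 lost its call in 8 to 11 of the 12 fits that left out 1 library, where the highest adjusted p was 0.0930, 0.106, 0.0779, 0.103 and 0.0723 in the same order. Without control FFSS replicate 1, a fit for which no all-gene share is given here, the count was 32. It was 5 without control FFSS replicate 3, DKO FFSS replicate 2 or control static replicate 2, 7 without control FFSS replicate 2, and 4 in the other 7 fits that left out 1 library. In DKO static cells Hspa1b already stood at 2.06 ± 0.245 CPM (SD, n = 3), below control FFSS cells at 6.32 ± 2.25. For Dnajb1 DKO static cells stood at 105 ± 1.59 CPM and control FFSS cells at 97.7 ± 12.6.

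In static culture, DKO cells were lower in 26 and higher in 21 of the 66 members, where 27.2% of all genes were lower and 27.0% higher. With over 2-fold required, Hspa1b, Hspb1, Hspa8, Hsph1 and Hspb2 were lower (7.30% of all genes) and Hspb8, Dnajc19 and Dnajb5 were higher (7.98%). By family, 17 of 27 tested HSP genes (HSP70, HSP110, HSP90, small HSPs, the chaperonin and HSP-binding proteins) were lower and 3 higher. Of 39 tested J-domain genes, 9 were lower and 18 higher. The median log2 difference was -0.54 in the HSP genes and 0.29 in the J-domain genes, and 0.01 over all genes. The difference between both sets was not tested, and not every family followed its set. J-domain A genes gave 2 lower and 0 higher, and HSP110 genes 1 lower and 1 higher. Of the 10 tested heat-inducible members, 9 were lower, the exception being Hspa4l. This count was 9 under every alternative fit, 4 with over 2-fold required and 8 of 9 without Hspa8. Since the class was chosen with earlier results of these data known, the count is a description. Osteocyte and chondrocyte markers differ between the same groups by the sums given above, and their part in these differences was not tested.

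**Figure D4:**
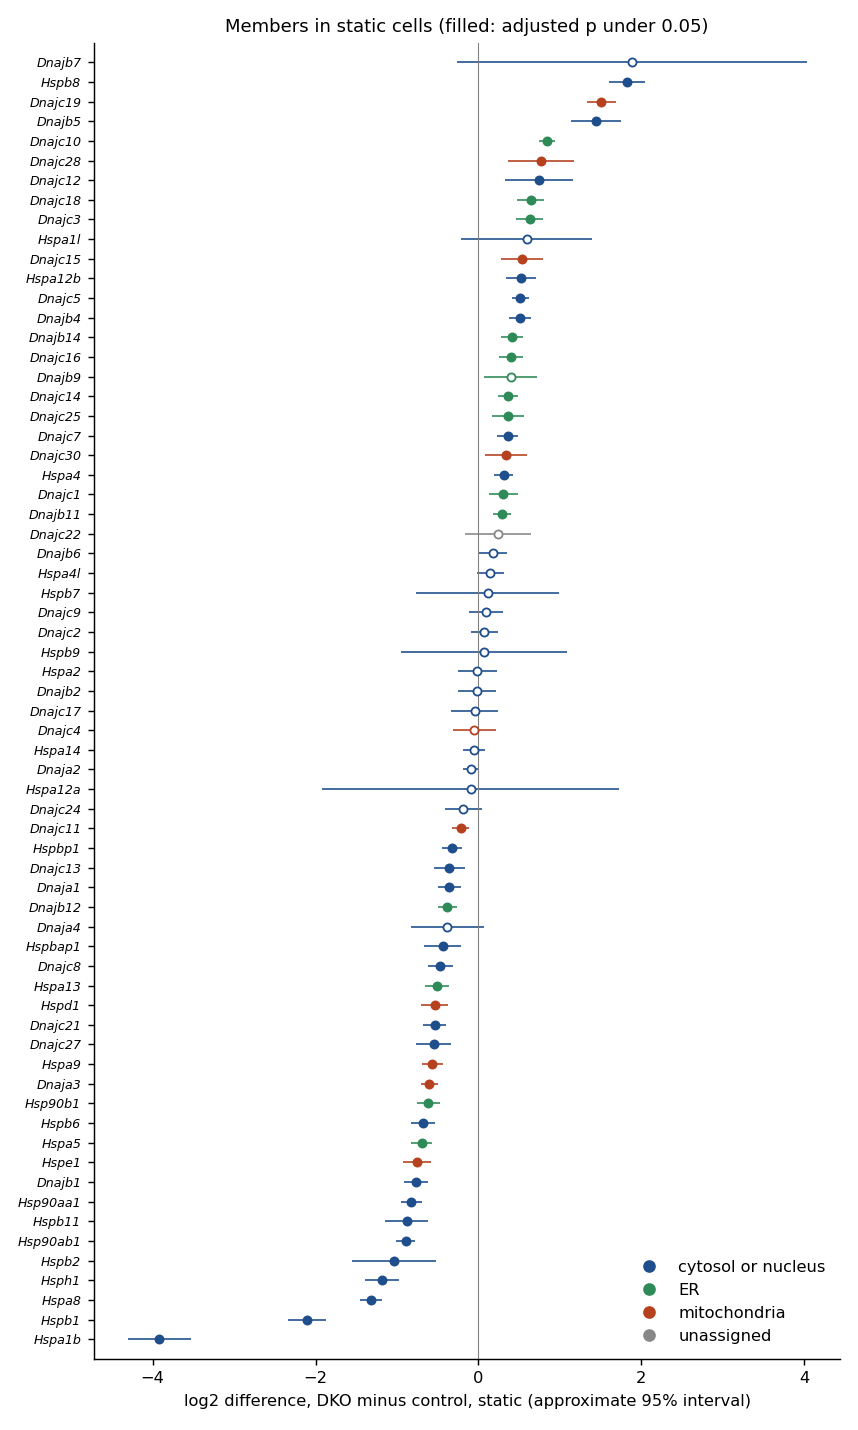
Log2 difference between DKO and control cells in static culture for all 66 tested members, in order, with approximate 95% intervals and coloured by location. Hspa1b lies lowest at -3.92, and of the filled points Hspb8 lies highest at 1.83.

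Hspa1b was lower in DKO static cells, with a log2 difference of -3.92 ± 0.20 (adjusted p = 1.86e-09). Hspb1 had 5.28, 4.23 and 4.39 CPM in DKO static against 19.5 to 20.4 in control static (log2 difference -2.10 ± 0.12, adjusted p = 4.68e-09). The log2 difference was -1.32 ± 0.07 for Hspa8 (adjusted p = 2.92e-09) and -1.19 ± 0.11 for Hsph1 (adjusted p = 6.93e-07). Both cytosolic HSP90 genes were lower, Hsp90ab1 with a log2 difference of -0.89 ± 0.06 (adjusted p = 2.18e-08), with 1590, 1631 and 1554 CPM in DKO static, and Hsp90aa1 with -0.82 ± 0.07 (adjusted p = 1.82e-07), with 103, 118 and 107. The difference was -0.77 ± 0.08 for Dnajb1 (adjusted p = 1.08e-06) and -0.36 ± 0.07 for Dnaja1 (adjusted p = 0.000915). Hspb2 was lower, at 14.1 to 17.2 CPM (log2 difference -1.03 ± 0.26, adjusted p = 0.00666), and its difference was -0.44 with the share of reads outside genes as a covariate (adjusted p = 0.00249), which is under 2-fold. For each of these the DKO static libraries all lay below the control static ones.

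Of the 21 members that were higher in DKO static cells, 18 were J-domain proteins, which make up 39 of the 66 members tested. The others were Hspa4, Hspa12b and the small HSP Hspb8, which acts with Bag3 in selective autophagy. Hspb8 had 6.87, 6.77 and 5.21 CPM in static control cells and 21.1, 23.9 and 21.9 in DKO static (log2 difference 1.83 ± 0.11, adjusted p = 1.09e-08). Dnajc19, a J-domain protein of the mitochondrial import motor, had 5.07, 5.57 and 5.58 against 14.8, 15.3 and 16.2 CPM (log2 difference 1.51 ± 0.09, adjusted p = 8.16e-09). Dnajb5 had 7.08 to 9.48 against 20.9 to 22.2 CPM (log2 difference 1.44 ± 0.16, adjusted p = 3.15e-06). These groups lay far apart without overlap. Dnajb4 was higher by 0.51 ± 0.07 (adjusted p = 2.15e-05) although it fell with FFSS in control cells, and Dnajc12, at 1.43 to 3.62 CPM over both groups, was higher by 0.75 ± 0.22 (adjusted p = 0.00899), a call that was lost without DKO static replicate 2 (adjusted p = 0.0540).

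Of the 14 ER members, 4 were lower and 9 higher in DKO static cells, where 27.2% of all genes were lower and 27.0% higher. Hspa5 had 1127, 1035 and 1097 CPM in DKO static against 1649 to 1903 in control static (log2 difference -0.70 ± 0.06, adjusted p = 6.25e-07). The difference was -0.62 ± 0.07 for Hsp90b1 (adjusted p = 5.77e-06), -0.51 ± 0.08 for Hspa13, an ER ATPase of the HSP70 family (adjusted p = 5.46e-05), and -0.38 ± 0.06 for the membrane J-domain protein Dnajb12 (adjusted p = 0.000117). The other 9 ER members that passed were higher, all of them J-domain proteins. Dnajc10, an ER disulfide reductase, had 123, 128 and 126 CPM in static control cells and 229, 217 and 231 in DKO static (log2 difference 0.85 ± 0.05, adjusted p = 8.64e-09). Dnajc18 was higher by 0.64 ± 0.08 and Dnajc3, an inhibitor of the kinase PERK, by 0.63 ± 0.08 (adjusted p = 1.65e-05 and 1.99e-05). All 3 members whose promoter holds the ER stress element passed, Hspa5 and Hsp90b1 being lower and Dnajc3 higher.

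In mitochondria 5 of 10 members were lower and 4 higher, beside the same 27.2% and 27.0% of all genes. The lower ones were Hspe1 (log2 difference -0.75 ± 0.09, adjusted p = 5.87e-06), Dnaja3 (-0.60 ± 0.05, 3.20e-07), Hspa9 (-0.56 ± 0.06, 4.08e-06), Hspd1 (-0.54 ± 0.09, 0.000115) and Dnajc11 (-0.22 ± 0.05, 0.00343). Hspd1 and Hspe1, whose products form one chaperonin, start 111 bases apart in opposite orientation on chromosome 1 of mm9. The higher ones were J-domain proteins, Dnajc19, Dnajc28 (0.77 ± 0.21, adjusted p = 0.00563), Dnajc15 (0.54 ± 0.13, 0.00324) and Dnajc30 (0.33 ± 0.13, 0.0433). The Dnajc30 call was lost without each of 8 libraries (adjusted p up to 0.160), and 37.6% of its exon bases overlap an opposite-strand gene with more reads. The count of mitochondrial members that were lower was 5 under every alternative fit and 0 with over 2-fold required.

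As a share of all reads assigned to genes, cytosolic and nuclear members took 0.610 to 0.620% in static control libraries, 0.555 to 0.588% in control FFSS, 0.392 to 0.411% in DKO static and 0.401 to 0.419% in DKO FFSS libraries. ER members took 0.366 to 0.399%, 0.417 to 0.433%, 0.280 to 0.291% and 0.271 to 0.278% in the same order, and mitochondrial members 0.124 to 0.132%, 0.122 to 0.150%, 0.0817 to 0.0884% and 0.0883 to 0.0922%. Within control cells the cytosolic share was lower and the ER share higher under FFSS in every library, while the mitochondrial shares overlapped. The rise of the ER share did not hold with the TMM-scaled library size, on which CPM rest, as the divisor, a choice made after seeing the data. The cytosolic range was 0.605 to 0.621% in static and 0.495 to 0.547% in FFSS control libraries, and the ER ranges overlapped at 0.361 to 0.400% and 0.373 to 0.402%, as did the mitochondrial ranges at 0.124 to 0.132% and 0.117 to 0.133%. All DKO libraries lay below all control libraries at each location with either divisor. No test was run on these shares. These sums mostly follow the most-read members, which were Hsp90ab1 (490462 reads over all 12 libraries), Hspa5 (337546), Hsp90b1 (179328) and Hspa9 (145660). All of these were lower in DKO static cells. Counted by gene, 9 of 14 ER members were higher there and 4 lower, beside 27.0% and 27.2% of all genes. In the cytosol or nucleus 8 of 41 were higher and 17 lower, and in mitochondria 4 of 10 were higher and 5 lower.

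**Figure D5:**
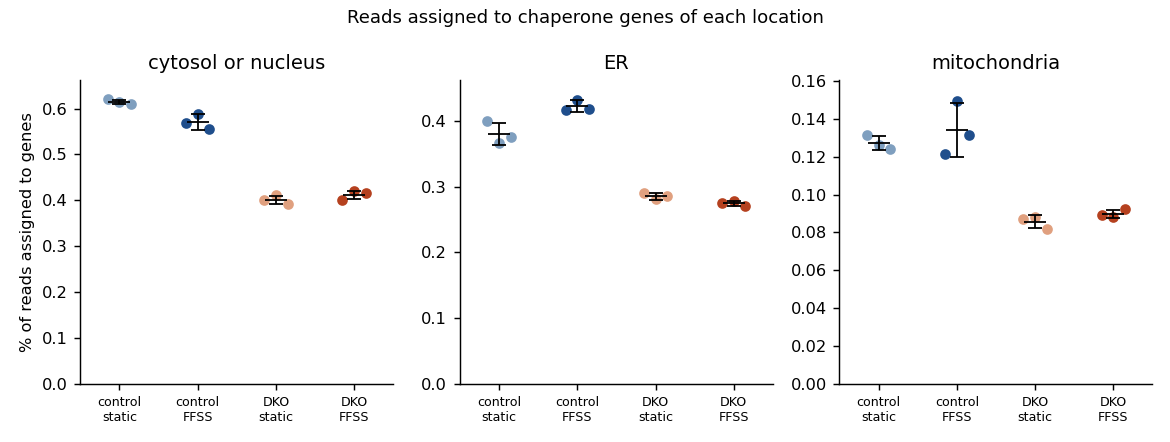
Share of the reads assigned to genes that fell on members of each location, in percent (linear axes from 0), in each library, with the group mean and SD. The cytosolic share is highest in control static (0.610 to 0.620%) and the ER share in control FFSS (0.417 to 0.433%), the latter with library totals but not with TMM-scaled library sizes as the divisor. The shares mostly follow the most-read members, Hsp90ab1, Hspa5, Hsp90b1 and Hspa9.

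Under FFSS the genotype comparison gave 24 members lower and 23 higher in DKO cells, against 29.6% and 27.0% of all genes. With over 2-fold required there were 4 in each direction, against 8.96% lower and 8.25% higher of all genes. This comparison and the static one share no library, but both set the same derived populations against each other and come from the same fit. In both comparisons, 40 of 66 members (60.6%) passed in the same direction and 0 in opposite directions, against 42.0% and 0.315% of all genes. The members past 2-fold were Hspa1b (-1.61 ± 0.22, adjusted p = 2.27e-05), Hspb1 (-1.60 ± 0.12, 8.07e-08), Hspb9 (-1.46 ± 0.49, 0.0199) and Hspbap1 (-1.18 ± 0.11, 7.95e-07), which were lower, and Hspb8 (1.95 ± 0.11, 6.31e-09), Hspb7 (1.73 ± 0.47, 0.0115), Dnajc19 (1.39 ± 0.09, 1.76e-08) and Dnajb4 (1.04 ± 0.07, 2.61e-08), which were higher. Hspb9 lay between 0.104 and 0.822 CPM in all libraries, where 3 reads correspond to 0.146 to 0.178 CPM, and its call was lost without DKO FFSS replicate 2 or 3 or control FFSS replicate 1 (adjusted p = 0.0611, 0.0678 and 0.0615) and under DESeq2 and limma-voom (0.0568 and 0.0951). Hspb7 had 141, 153 and 134 CPM in DKO FFSS, against 122 to 146 CPM in the static libraries of both genotypes, and without control FFSS replicate 1 its log2 difference was 2.71. With 1 library left out the lowest log2 difference of Dnajb4 was 0.993, which is under 2-fold. Dnajb1, at 94.3 to 104 CPM in DKO FFSS and 89.6 to 112 in control FFSS, did not pass, and its groups overlapped.

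Other genes of the folding machinery were counted from lists drawn up with earlier results of these data known. The counts stand against 18.1% lower and 17.7% higher among all genes for FFSS in control cells, and 27.2% and 27.0% for DKO static cells, and shares near these are no result about a list. Of 9 tested HSP70 co-chaperones outside the DNAJ family, 4 fell and 0 rose with FFSS in control cells, and of 14 HSP90 co-chaperones 5 fell and 3 rose. In DKO static cells 5 and 9 of these were lower and 0 and 4 higher. Bag2, an HSP70 nucleotide exchange factor, was lower in DKO static cells (log2 difference -1.07, adjusted p = 8.24e-08), and the HSP90 cyclophilin Ppid under FFSS (-1.29, adjusted p = 1.33e-07). St13, which stabilises HSP70 bound to clients, passed the interaction (0.42, adjusted p = 0.0401) but lost it in 11 of the 12 fits that left out 1 library (adjusted p up to 0.112). Of 8 subunits of the cytosolic chaperonin TRiC, 7 were lower and 1 (Cct3) higher in DKO static cells, and 2 rose with FFSS in control cells. Of 5 prefoldin subunits, 1 fell with FFSS and 2 were lower and 1 higher in DKO static cells.

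Among 5 genes of the heat shock factor list, Hsf1, the factor that drives the heat shock response, rose with FFSS in control cells, from 82.1, 86.1 and 80.1 to 93.0, 108 and 122 CPM (log2 difference 0.38, adjusted p = 0.00336). It is named after its values were seen, as is Hsf2, which fell by 0.28 (adjusted p = 0.0234). With the covariate neither passed (adjusted p = 0.488 and 0.465), and Hsf2 also lost its call without control FFSS replicate 2 or 3 or control static replicate 1 or 3 (0.0602 to 0.0899). In DKO static cells Hsf1 had 65.2 to 71.7 CPM (log2 difference -0.28, adjusted p = 0.0102). Of 16 other ER folding genes, 7 fell and 1, Hyou1, rose with FFSS in control cells. Hyou1, the ER HSP110, went from 322, 300 and 298 to 333, 435 and 460 CPM (log2 difference 0.42, adjusted p = 0.00371; 0.740 with the covariate), and the oxidase Ero1l fell by 0.80 (adjusted p = 7.86e-05). In DKO static cells 8 of the 16 were lower and 3 higher, with a log2 difference of -1.59 for Ero1l (adjusted p = 1.74e-08). Under FFSS the collagen chaperone Serpinh1 and the disulfide isomerase P4hb were higher in DKO than in control cells by 1.02 and 1.11 (adjusted p = 1.96e-05 and 2.33e-05), and Ero1l, Ero1lb, Sdf2l1 and Hyou1 were lower by over 2-fold (log2 difference -1.08, -1.06, -1.13 and -1.003). With 1 library left out the lowest size was under 2-fold for Hyou1 (-0.91), Ero1l (-0.99), Serpinh1 (0.90) and P4hb (0.99), and Hyou1 was at -0.97 with the covariate. Of 11 other mitochondrial folding genes and proteases, 1 fell and 1 rose with FFSS in control cells, and 4 were lower and 1 higher in DKO static cells. The all-gene shares given for the other lists (18.1% lower and 17.7% higher with FFSS, 27.2% and 27.0% in DKO static cells) stand behind these list counts too. Cryab was lower in DKO static cells (log2 difference -1.77, adjusted p = 0.000619).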

How the data were processed

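RNA was sequenced as single-end 50-base reads in 12 libraries. Per the labels and the study's methods, the authors aligned reads to mm9 with STAR and counted reads per Ensembl gene with HTSeq, so the deposited values are raw counts with reads of several places left out. The HTSeq version is not given consistently in the sources used here. Rows that name no gene were kept out of library sizes, and reads outside genes made up 5.10 to 10.0% of uniquely aligned reads. The members and lists were chosen with earlier results of these data known.

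Symbols, positions and exons came from the GENCODE annotation of mm9 (NCBIM37). Genes with 0 counts in 2 or more libraries were removed, as in the study, which left 14904. edgeR 4.0.16 (R 4.3.3) fitted all 12 libraries and 4 groups with TMM scaling, and quasi-likelihood tests gave 5 comparisons with Benjamini-Hochberg adjustment over all genes. A call is an adjusted p under 0.05. CPM are counts scaled by the TMM-adjusted library size, and ± gives the SE of a log2 difference or the SD of a group of 3. Approximate 95% intervals are for the log2 difference and rest on its SE from the fit of all 12 libraries. They are not the range of single libraries. Uniqueness is the share of 50-base exon windows that occur once in mm9. Promoter windows came from RefSeq (GRCm38.p6).

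Genes named were a fixed set of main members, every member past 2-fold in a comparison, and per location up to 3 highest and 3 lowest calls. Others are named beside these, and only some of them, not for example Hspa2, Dnajb12 or Dnajc30, are marked in the text. Alternatives were DESeq2 1.42.0, limma 3.58.1 (voom with quality weights), other scalings and filters, a replicate block, the share of reads outside genes as a covariate, only the 6 libraries of a comparison, a 2-fold rule and each library left out. The fit was tested on simulated counts.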

Additional observations from a re-analysis of the deposited data

Results flagged for a closer look

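For 9 members the FFSS effect differed between DKO and control cells by the test of the difference itself, the interaction term over all 12 libraries. The value given is the DKO effect minus the control effect on the log2 scale. It was 2.31 for Hspa1b, 0.80 for Dnajb1, 0.64 for Hsph1, 0.53 for Dnajb4, 0.52 for Hspa8, 0.50 for Hspa4l, 0.47 for Dnajc21 and 0.35 for Hsp90ab1, all of which fell in control cells. It was -0.75 for Hspbap1, which rose in control cells. In DKO static cells Hspa1b, Dnajb1, Hsph1, Hspa8, Dnajc21 and Hsp90ab1 were already lower than in control static cells, as was Hspbap1 (-0.44) although it rose with FFSS in control cells. Dnajb4 was higher, and Hspa4l did not pass.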

How the results depend on the processing

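Of the member calls, 44 of 47 in static cells and 37 of 47 under FFSS between genotypes held under every alternative fit, as did 9 of 30 for FFSS in control cells and 4 of 9 in the interaction. These counts leave aside the 2-fold rule, which is given for each comparison below. The shares of all genes given above belong to the main fit, and none is given for the other fits. The count of members that passed for FFSS in control cells was 30. It was 14 with only the 6 control libraries, 18 with the share of reads outside genes as a covariate, 3 with over 2-fold required, and 20 to 38 when 1 library was left out. For FFSS in DKO cells it was 0. It was 4 with limma-voom, 5 with only the 6 DKO libraries, 5 with the covariate and 0 to 5 with 1 library left out. The interaction count of 9 was 30 with limma-voom, 1 with over 2-fold required and 4 to 32 with 1 library left out. Between genotypes 47 members passed in each condition, and 8 in each with over 2-fold required.

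Scaling by library totals alone moved the median of all genes by 0.12 for FFSS in control cells, by -0.20 between genotypes under FFSS and by -0.11 in the interaction. The members then gave 15 higher and 16 lower, 16 higher and 32 lower, and 6 higher and 5 lower, in place of 11 and 19, 23 and 24, and 8 and 1. With limma-voom FFSS in control cells gave 8 higher and 23 lower. The covariate turned the FFSS difference in control cells to 0.027 for Dnajc9 and to 0.020 for P4hb on the log2 scale, and the cause was not tested.

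Replicate numbers did not pair the libraries: the mean correlation of deviations between same-numbered libraries was 0.00226, and 3 of 12 libraries correlated best with their own number. With a replicate block the counts were 30 for FFSS in control cells, 0 in DKO cells, 6 in the interaction, and 47 and 48 between genotypes in static cells and under FFSS.

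Depth limits members near 3 reads, such as Hspb9 and Dnajb7, and sequence identity limits the 7 members under 80% unique windows (Hspa1a, Hspa1b, Hsp90aa1, Hspb1, Hspd1, Dnajb6 and Hspa8). Control FFSS replicate 1 widens the spread that all comparisons share.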
